A study of Homo sapiens with 12 samples.

Results

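All 12 libraries of the series entered 1 contrast, the diet by population interaction: the log2 fold change between the fasting-mimicking diet and the control diet in CD24-high cells minus the same fold change in CD24-low cells. Each of the 4 groups had 3 libraries, assigned by their titles, and of 26475 genes counted 15461 passed the filter on low counts and were tested. SUM159 (SUM159PT) is a human breast cancer cell line, and it was injected into female NOD scid gamma mice, an immunodeficient strain, at 8 weeks of age. The mice received the standard diet (CTR) or cycles of a fasting-mimicking diet (FMD) on 4 consecutive days of each week. Tumour cells were stained for human CD44 and CD24 and sorted into CD44+ cells with low CD24 (LO) or high CD24 (HI), and polyadenylated RNA was sequenced with strand information. The 4 groups were therefore CTR LO, CTR HI, FMD LO and FMD HI. All of them came from the same cell line in the same host strain, and the control libraries are labelled untreated. The labels do not say which libraries came from separate animals, so p-values measure the spread between these samples, which may be partly technical.

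A fasting-mimicking diet is a low-calorie regimen given in short cycles, known for lowering circulating glucose, insulin and insulin-like growth factor 1. In breast cancer, cells with CD44 at the surface and little CD24 are known as a population enriched for tumour-initiating, stem-like cells, whereas cells with more CD24 are held to be more differentiated. An interaction asks whether the diet difference depends on which of these sorted populations is measured. A negative value means a more positive diet difference in CD24-low than in CD24-high cells, and a positive value the reverse.

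The FMD LO libraries stood apart from the other 9. Their total counts ran from 17736610 to 18579816, against 29049144 to 47587142 elsewhere. On the first principal component, which held 57.4% of the variance, they lay between 79.5 and 88.9, and the other libraries between -46.1 and 2.35. Neither mRNA of the antigens used for sorting was called. CD24 was at 1.31 to 2.82 CPM (counts scaled to a common library size) in CTR LO, 1.03 to 1.90 in FMD LO, 1.41 to 2.85 in CTR HI and 1.43 to 3.27 in FMD HI, with an interaction of 0.60 ± 0.59 (log2 ± SE, adjusted p = 0.708). CD44 ranged from 667 to 1229 CPM over the 12 libraries, with an interaction of 0.43 ± 0.26 (adjusted p = 0.483).

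The diet difference depended on the population for 638 genes, 4.13% of those tested, at a Benjamini-Hochberg adjusted p below 0.05 in edgeR's quasi-likelihood test. The interaction was negative for 630 of them (4.07%) and positive for 8 (0.0517%). At an unadjusted p below 0.05 there were 2354 genes, 1833 negative and 521 positive. Of the called genes, 494 had an interaction of at least 1 log2 unit in size and 298 of at least 2. The median interaction was -1.83 over the 630 genes and 0.04 over all genes tested, of which 45.4% had a negative sign. Setting the 5 called genes with no count in a whole group to 3 counts left the median at -1.83. The count fell to 361 without FMD LO replicate 2, 403 without FMD HI replicate 2, 409 without CTR LO replicate 3 and 412 without FMD LO replicate 1. All 638 genes kept their sign in each of these. The main fit has no replicate block. With a replicate block within diet, which takes same-numbered LO and HI libraries as pairs, 1702 genes were called, 1387 negative and 315 positive. Of the 638 genes, 620 remained called with it.

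FMD LO set the called genes apart. Over the 630 genes, the median diet difference was 1.61 in CD24-low cells and -0.05 in CD24-high cells. The diet difference was above 0 in CD24-low cells for all 630 and in CD24-high cells for 271. Of all 15461 genes tested, it was above 0 for 7235 in CD24-low and 7575 in CD24-high cells. The median population difference (HI minus LO) was -0.05 under the control diet and -1.85 under the fasting-mimicking diet. FMD LO was the group with the highest mean for all 630, and its 3 libraries lay above each of the other 9 for 623. A negative call itself favours genes that are high in FMD LO, so these counts only describe the called genes. Over all genes tested, FMD LO had the highest mean for 5102. It lay above the other 9 libraries for 2024 (13.1%) and below them for 773 (5.00%). The corresponding counts above and below were 54 and 25 for CTR LO, 17 and 28 for CTR HI, and 139 and 139 for FMD HI.

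**Figure D1:**
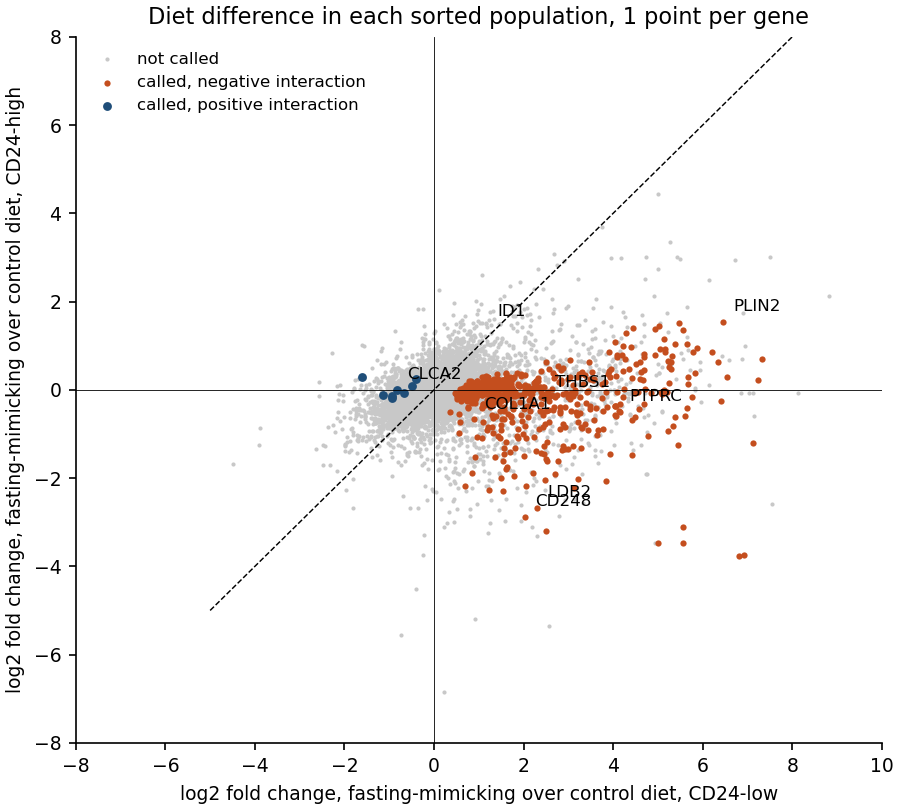
Diet difference (log2 fold change, fasting-mimicking over control diet) in CD24-low cells on the x axis and CD24-high cells on the y axis, 1 point per gene tested, with the line of equal difference dashed. The 630 genes with a negative interaction (orange) lie to the right of 0 on the x axis, and the 8 with a positive interaction (blue) to the left.

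**Figure D2:**
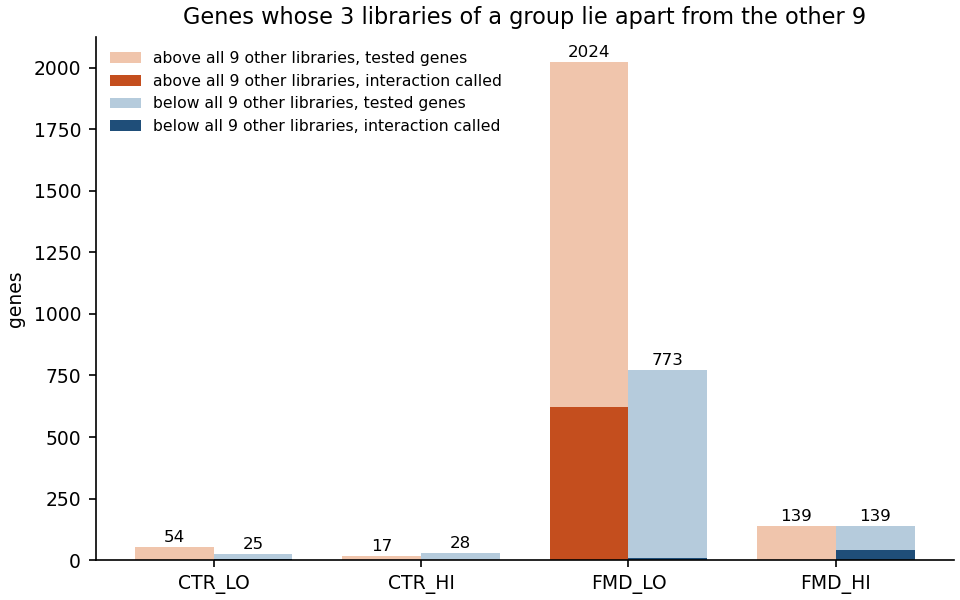
Number of genes (y axis) for which the 3 libraries of a group lie above or below all 9 other libraries, with the called genes in the darker colour. FMD_LO, the CD24-low cells under the fasting-mimicking diet, lies apart for 2024 and 773 genes, and no other group for more than 139 in a direction.

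The called genes covered the range of levels in the other 3 groups. Below a mean of 1 CPM there, 164 of 2436 genes had a negative call (6.73%), with a median interaction of -4.15, but 539 of the 2436, 70 of them called, passed the filter on low counts only through FMD LO. Of the 1897 that passed on the other 9 libraries, 94 were called (4.96%). Between 1 and 10 CPM there were 159 of 3815 (4.17%), with a median of -2.29. Between 10 and 100 CPM there were 252 of 7545 (3.34%) and from 100 CPM 55 of 1665 (3.30%), with medians of -1.09 and -1.10. At a low level only a large fold can be called, so these medians are a description of the called genes. Of the 630, 40 had under 10 counts in at least 1 group.

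Most of the smallest p-values belonged to moderately expressed genes with little spread, which were chosen here after their values were seen. PTPRC, given below, and HCLS1 were also among the smallest. HCLS1 lay between 66.3 and 91.9 CPM in FMD LO and between 4.92 and 9.43 CPM elsewhere (-3.33 ± 0.31). FBXL5, which encodes the iron-sensing subunit of a ubiquitin ligase (chr4:15604381-15681569), was at 29.3, 29.01 and 23.8 CPM in CTR LO and at 174, 155 and 140 CPM in FMD LO. In CD24-high cells FBXL5 was at 26.1, 22.6 and 25.5 CPM under the control diet and 22.9, 22.4 and 23.3 CPM under the fasting-mimicking diet. The 3 FMD LO libraries were high and the other 9 did not leave the range of 22.4 to 29.3 CPM. The FBXL5 interaction was -2.63 ± 0.17 (95% interval -2.99 to -2.26, edgeR adjusted p = 1.00e-05).

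PAFAH1B1, which encodes LIS1, a regulator of the motor dynein (chr17:2593183-2685615), lay between 201.5 and 249 CPM in FMD LO and between 46.2 and 57.4 CPM elsewhere, with an interaction of -2.001 ± 0.17. NDEL1, whose product binds LIS1, lay between 199 and 219 CPM in FMD LO and between 29.7 and 45.0 CPM elsewhere (-2.37 ± 0.20). Both were called, at edgeR adjusted p = 5.10e-05 and 5.05e-05. MSL2, a subunit of a histone acetyltransferase complex, gave -2.16 ± 0.17, SUCO -2.27 ± 0.18 and OSBPL9, an oxysterol-binding protein relative, -2.05 ± 0.19. For these 3 genes the FMD LO libraries again did not overlap with the other 9.

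The gene lists here and below were chosen with earlier results of these data known, so their shares only describe the lists. Of the 32 genes of the leukocyte list, FCGR1A, FCGR3A, FCER1G, TYROBP, CD163, C1QA, C1QB and C1QC failed the filter, and 24 were tested. Of these 24, 11 had a negative call (45.8%, beside 4.07% of all genes tested) and 23 a negative sign. The median interaction was -2.61, also with CD53, which had no count in CTR HI, set to 3 counts there. The filter on low counts was passed only through FMD LO by 3 of the 24, none of them called, and over the other 21 the median was -2.21. PTPRC, which encodes the pan-leukocyte surface phosphatase CD45 (chr1:198638713-198757476), was at 3.23, 3.06 and 2.52 CPM in CTR LO and at 59.9, 49.3 and 44.7 CPM in FMD LO. In CD24-high cells PTPRC was at 4.34, 1.76 and 3.46 CPM under the control diet and 2.08, 2.13 and 2.62 CPM under the fasting-mimicking diet. Only the FMD LO libraries were high. The diet difference of PTPRC was 4.12 ± 0.27 in CD24-low cells and -0.49 ± 0.26 in CD24-high cells, and the interaction was -4.61 ± 0.37 (edgeR adjusted p = 3.84e-05).

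CSF1R, the receptor for macrophage colony-stimulating factor, lay between 20.2 and 30.3 CPM in FMD LO and between 1.31 and 5.15 CPM in the other 9 libraries, with an interaction of -3.34 ± 0.41. SPI1, which encodes the myeloid transcription factor PU.1, lay between 41.1 and 48.1 CPM in FMD LO, 0.63 and 2.08 CPM in the controls, and 1.76 and 4.34 CPM in FMD HI (-3.58 ± 0.56). LCP1, the leukocyte actin-bundling protein plastin 2, was already present elsewhere at 84.7 to 145 CPM and lay between 447 and 481 CPM in FMD LO (-2.12 ± 0.22). The haematopoietic signalling and cytoskeletal genes DOCK2 (-4.36 ± 0.64), CORO1A (-3.95 ± 0.61) and VAV1 (-4.57 ± 0.88) were called as well. CXCR4 of the breast stem cell list, a chemokine receptor gene, gave -4.15 ± 0.97 (edgeR adjusted p = 0.037), and the highest adjusted p over the 12 fits that left out 1 library was 0.142.

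Of the 18 neutrophil genes 13 were tested, and 5 of these had a negative call (38.5%, beside 4.07% of all genes tested). The filter was passed only through FMD LO by 4 of the 13, 3 of them called (NCF1, MMP8 and CLEC4E). The other 9 had 2 calls and a median of -1.38. CXCR2, a receptor for neutrophil-attracting chemokines, lay between 8.31 and 13.9 CPM in FMD LO and between 0.208 and 1.06 CPM elsewhere (-4.26 ± 0.61). NCF4, a subunit of the phagocyte NADPH oxidase, gave -4.71 ± 0.77. NCF1, another subunit, gave -4.24 ± 0.63, and it has near-identical pseudogenes, so its level is uncertain. MMP8, neutrophil collagenase, had 173, 85 and 153 counts in FMD LO and 0 to 8 in each other library, and CLEC4E, a myeloid lectin receptor, 146, 114 and 126 against 0 to 8. MMP8 was called in 10 and CLEC4E in 3 of the 12 fits that left out 1 library. The 2 genes of neutrophil calprotectin were not called: the interaction was 0.45 ± 1.83 for S100A8 and 0.80 ± 1.65 for S100A9 (edgeR adjusted p = 0.945 and 0.884). Within the control libraries they ranged from 13 to 592 and from 53 to 1388 counts, and with these SEs a shift cannot be told from none. The summed level of the neutrophil list was 101 to 125 CPM in FMD LO and 11.1 to 79.7 CPM elsewhere.

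The defining macrophage markers were uneven. FCGR1A, FCGR3A, C1QA and C1QC had 0 counts in all 12 libraries, and 4 of the 32 listed markers in the files were at 0 throughout. CD14 was at 2.83 to 5.15 CPM in FMD LO and 2.61 to 4.28 CPM in FMD HI, with an interaction of -0.08 ± 0.58. CD68, a lysosomal macrophage marker, gave -0.08 ± 0.46, and neither was called (edgeR adjusted p = 0.969 and 0.961). The summed level of the leukocyte list was 938 to 1012 CPM in FMD LO, 195 to 229 in CTR LO, 190 to 245 in CTR HI and 247 to 277 in FMD HI. In such bulk samples more cells of a type and more RNA per cell cannot be told apart. How reads of mouse cells were handled is not given in the sources used here, and their part in these results was not tested.

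Promoters of 3 called leukocyte and neutrophil genes are shown because they hold the motif GAGGAAGT, a sequence bound by PU.1, within 250 bases before the start; 16 members of those lists were called and 10 of them had a promoter entry. The sequences are from RefSeq (GRCh38.p14), written 5′ to 3′ on the gene's strand, with the motif or its reverse complement in capitals.
LCP1 (chr13:46182178-46182427, minus strand): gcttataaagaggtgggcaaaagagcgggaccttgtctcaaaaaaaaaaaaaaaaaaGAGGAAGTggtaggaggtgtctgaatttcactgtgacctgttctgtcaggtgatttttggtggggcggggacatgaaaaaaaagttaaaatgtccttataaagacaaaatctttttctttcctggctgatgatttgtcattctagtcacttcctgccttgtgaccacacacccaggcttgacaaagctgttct
VAV1 (chr19:6772458-6772707, plus strand): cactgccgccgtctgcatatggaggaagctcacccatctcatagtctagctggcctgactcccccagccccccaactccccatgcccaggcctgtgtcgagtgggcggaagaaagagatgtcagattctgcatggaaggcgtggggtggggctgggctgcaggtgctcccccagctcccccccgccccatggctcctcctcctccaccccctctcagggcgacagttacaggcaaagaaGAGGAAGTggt
NCF1 (chr7:74773761-74774010, plus strand): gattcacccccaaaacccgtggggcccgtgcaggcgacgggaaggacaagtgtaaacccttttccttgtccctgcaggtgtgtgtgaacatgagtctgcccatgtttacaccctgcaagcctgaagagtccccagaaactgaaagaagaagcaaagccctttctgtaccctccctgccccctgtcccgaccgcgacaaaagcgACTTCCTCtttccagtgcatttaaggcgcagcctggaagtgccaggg

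On either strand, GAGGAAGT was in 13 of 289 promoters of genes with a negative call (4.50%) and in 153 of 7854 promoters of all genes tested (1.95%). The cAMP response element TGACGTCA was in 8 of those 289 (2.77%) against 3.16% of all. The other motifs searched were CCAAT (33.9% against 36.2%), the CHR element TTTGAA (7.96% against 8.61%), the AP-1 element TGANTCA (3.46% against 4.37%), the hypoxia response element ACGTGC (7.96% against 7.70%) and the TEAD element CATTCC (11.8% against 9.70%). None of these motifs holds another of the set, and a match is only a description of the letters in this window. Of the 630 genes with a negative call, 70, NCF1 among them, passed the filter on low counts only through FMD LO. The motif shares were not computed without these 70.

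**Figure D3:**
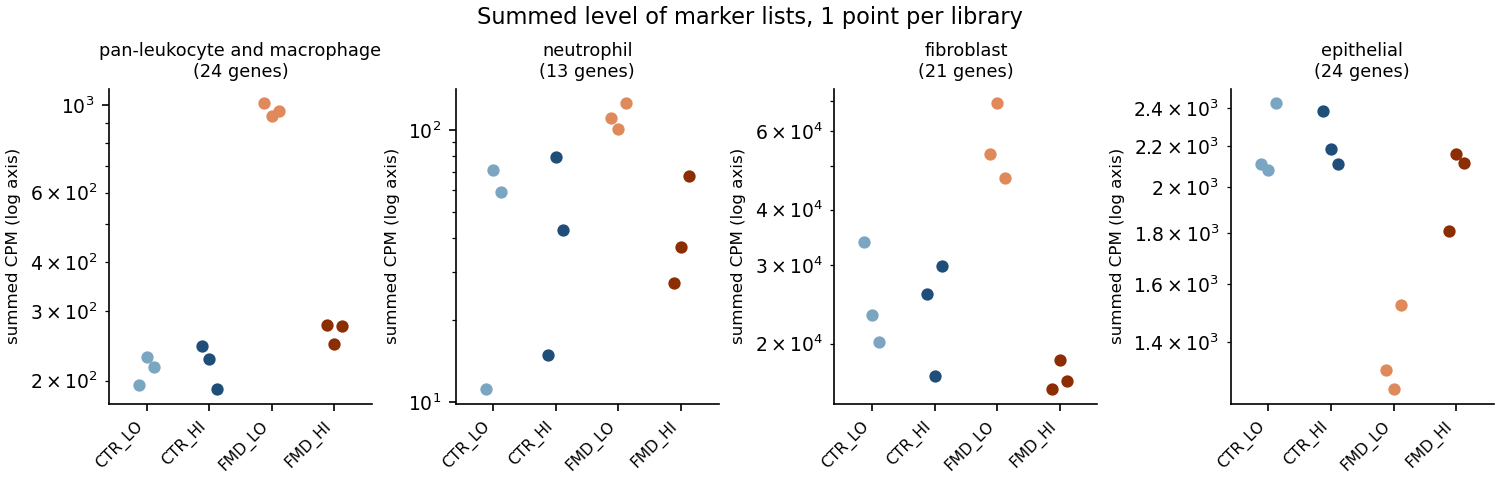
Summed level of 4 marker lists in each library, in CPM on a log axis, with 1 point per library and the 4 groups on the x axis. The leukocyte sum is 938 to 1012 CPM in FMD_LO and at most 277 CPM elsewhere, and the epithelial sum is lowest in FMD_LO.

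Genes of the extracellular matrix formed the next group. Of 44 listed matrix and collagen genes tested, 11 had a negative call (25%, beside 4.07% of all genes tested). A negative sign was found for 36, and the median interaction was -1.05. THBS1, which encodes the secreted glycoprotein thrombospondin 1 (chr15:39581079-39599466), was at 172, 162 and 120 CPM in CTR LO and at 1060, 737 and 711 CPM in FMD LO. In CD24-high cells THBS1 was at 162, 118 and 189 CPM under the control diet and 161, 140 and 114 CPM under the fasting-mimicking diet. The FMD LO libraries were all above the other 9, which overlapped among themselves. The THBS1 interaction was -2.64 ± 0.30 (edgeR adjusted p = 0.000509).

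LOX, the lysyl oxidase that cross-links collagen and a gene of the hypoxia list, was at 21.5, 29.4 and 12.6 CPM in CTR LO and at 197, 142 and 111 CPM in FMD LO. It stayed between 17.4 and 27.5 CPM in the 6 CD24-high libraries, and its interaction was -2.60 ± 0.40. THBS2, thrombospondin 2, gave -3.66 ± 0.44, with 121 to 161 CPM in FMD LO, 9.47 to 27.7 CPM in CTR LO, 10.2 to 13.0 CPM in CTR HI and 5.70 to 8.72 CPM in FMD HI. Its diet difference was 2.89 ± 0.32 in CD24-low cells and -0.77 ± 0.31 in CD24-high cells. FBN1, which encodes fibrillin 1 (-1.83 ± 0.43), and BGN, the proteoglycan biglycan (-1.95 ± 0.46), were also called.

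COL1A1, a chain of type I collagen (chr17:50184101-50201631), was at 16240, 11007 and 11186 CPM in CTR LO and 21992, 27629 and 21364 CPM in FMD LO. In CD24-high cells COL1A1 was at 14786, 8959 and 14233 CPM under the control diet and 6975, 8198 and 8806 CPM under the fasting-mimicking diet. The diets did not overlap in either population, and the order was opposite. The interaction was -1.55 ± 0.29 for COL1A1 (edgeR adjusted p = 0.00875) and -2.97 ± 0.57 for COL1A2, the other chain. COL3A1, type III collagen, gave -1.68 ± 0.45 and was not called (adjusted p = 0.0621).

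The fibroblast list, which shares THBS2, COL1A1, COL1A2 and ACTA2 with other lists, had 5 negative calls among 21 members (23.8%, beside 4.07% of all genes tested). Its median was -2.15, and -2.14 over the 20 that passed the filter on the other 9 libraries. Its summed level was 47061 to 69241 CPM in FMD LO, 15809 to 18374 in FMD HI, 20140 to 33862 in CTR LO and 16936 to 29859 in CTR HI. PDGFRB, a receptor of fibroblasts and pericytes, gave -2.68 ± 0.87 and was not called (adjusted p = 0.152). Neither was DCN, which encodes decorin (-1.01 ± 0.93). Of the 11 pericyte and smooth muscle genes, RGS5 (-2.30 ± 0.45) and ACTG2 (-4.58 ± 0.70), smooth muscle actin with close paralogs, were called. These were 18.2% of that list, beside 4.07% of all genes tested. Another 2 of the 11, not called, passed the filter only through FMD LO. The 16 endothelial genes had no call in edgeR and 2 in DESeq2, with 7 at an unadjusted p below 0.05, 13 negative signs and a median of -1.62. The filter on low counts was passed only through FMD LO by 3 of the 16, and over the other 13 the median was -1.36. The endothelial markers were uneven: PECAM1 gave -0.18 ± 0.33, VWF -0.15 ± 0.56, CDH5 -1.79 ± 0.78 and KDR -3.55 ± 1.15. The part of stromal cells of the host in these values was not tested.

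The mesenchymal list had 5 negative calls among 35 members (14.3%, beside 4.07% of all genes tested) and a median of -0.61. Over the 34 that passed the filter on the other 9 libraries the median was -0.58. ZEB2, a repressor of epithelial genes, lay between 234 and 363 CPM in FMD LO and between 41.6 and 90.6 CPM elsewhere (-2.08 ± 0.38). ACTA2, smooth muscle actin alpha, gave -2.23 ± 0.43, with 195 to 348 CPM in FMD LO and 37.6 to 45.3 CPM in FMD HI. ACTA2 was called in 18 of 19 alternative fits, but not with a replicate block within diet (edgeR adjusted p = 0.0768). Epithelial genes had no call among 24 members in edgeR and 2 in DESeq2, with 7 at an unadjusted p below 0.05, 23 positive signs and a median of 0.45. Their summed level was 1256 to 1525 CPM in FMD LO and 1809 to 2427 CPM elsewhere. The 15 keratin genes measured had no call by either tool, 3 at an unadjusted p below 0.05 and a median of 0.45. Over the 13 of them that passed the filter on the other 9 libraries the median was 0.52. A replicate block within diet in edgeR called 2 keratin genes and 4 epithelial genes.

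In 61 called genes the diets lay apart in both populations but in opposite directions, against 117 of all genes tested (0.757%). Lying apart means only that 3 libraries did not overlap with 3 others. In CD24-high cells this held for 87 of the 630 genes with a negative call (13.8%) and 1421 of all genes tested (9.19%). For 59 of them the fasting-mimicking diet libraries were higher in CD24-low cells and lower in CD24-high cells, and for 2, FEZ1 and SMPDL3B, the reverse. CD248, which encodes endosialin, a glycoprotein of stromal cells (chr11:66314494-66317044), was at 9.22, 5.37 and 5.64 CPM in CTR LO and 20.8, 37.9 and 24.7 CPM in FMD LO. In CD24-high cells CD248 was at 3.51, 1.48 and 11.5 CPM under the control diet and 0.913, 0.39 and 0.936 CPM under the fasting-mimicking diet. The diet difference of CD248 was 2.03 ± 0.59 in CD24-low and -2.88 ± 0.69 in CD24-high cells (edgeR adjusted p = 0.0415 and 0.435). The decrease in CD24-high cells was thus not called by itself. The CD248 interaction was -4.91 ± 0.91 (edgeR adjusted p = 0.0147). Among the fits that left out 1 library, the call was lost without FMD HI replicate 2 or 3. It was also lost with a replicate block within diet (edgeR adjusted p = 0.0587).

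For SVILP1 and KIF4B, whose reads may be shared with the genes they resemble, the CD24-high side rested on few counts. SVILP1 had 6 counts in all of CTR HI and 2 in FMD HI, and its diet difference there was -1.47 ± 1.10. Its call was lost without CTR HI replicate 1, CTR HI replicate 3, FMD LO replicate 1 or FMD HI replicate 3. The other genes with the largest opposite differences were LDB2 (-4.96 ± 1.18), a LIM domain binding protein, and PLCB4 (-4.67 ± 0.95), a phospholipase C. Singled out after their values were seen, the collagen receptor gene DDR2 (-3.91 ± 0.58) and the procollagen peptidase gene ADAMTS2 (-3.26 ± 0.66) had the same pattern. The diet difference in CD24-high cells alone was not called for LDB2, PLCB4, DDR2 or ADAMTS2 (edgeR adjusted p = 0.604, 0.915, 0.516 and 0.861). The LDB2 interaction was called in 3 of the 12 fits that left out 1 library. SVILP1, KIF4B and PLCB4 passed the filter on low counts only through FMD LO, the group where they were high.

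**Figure D4:**
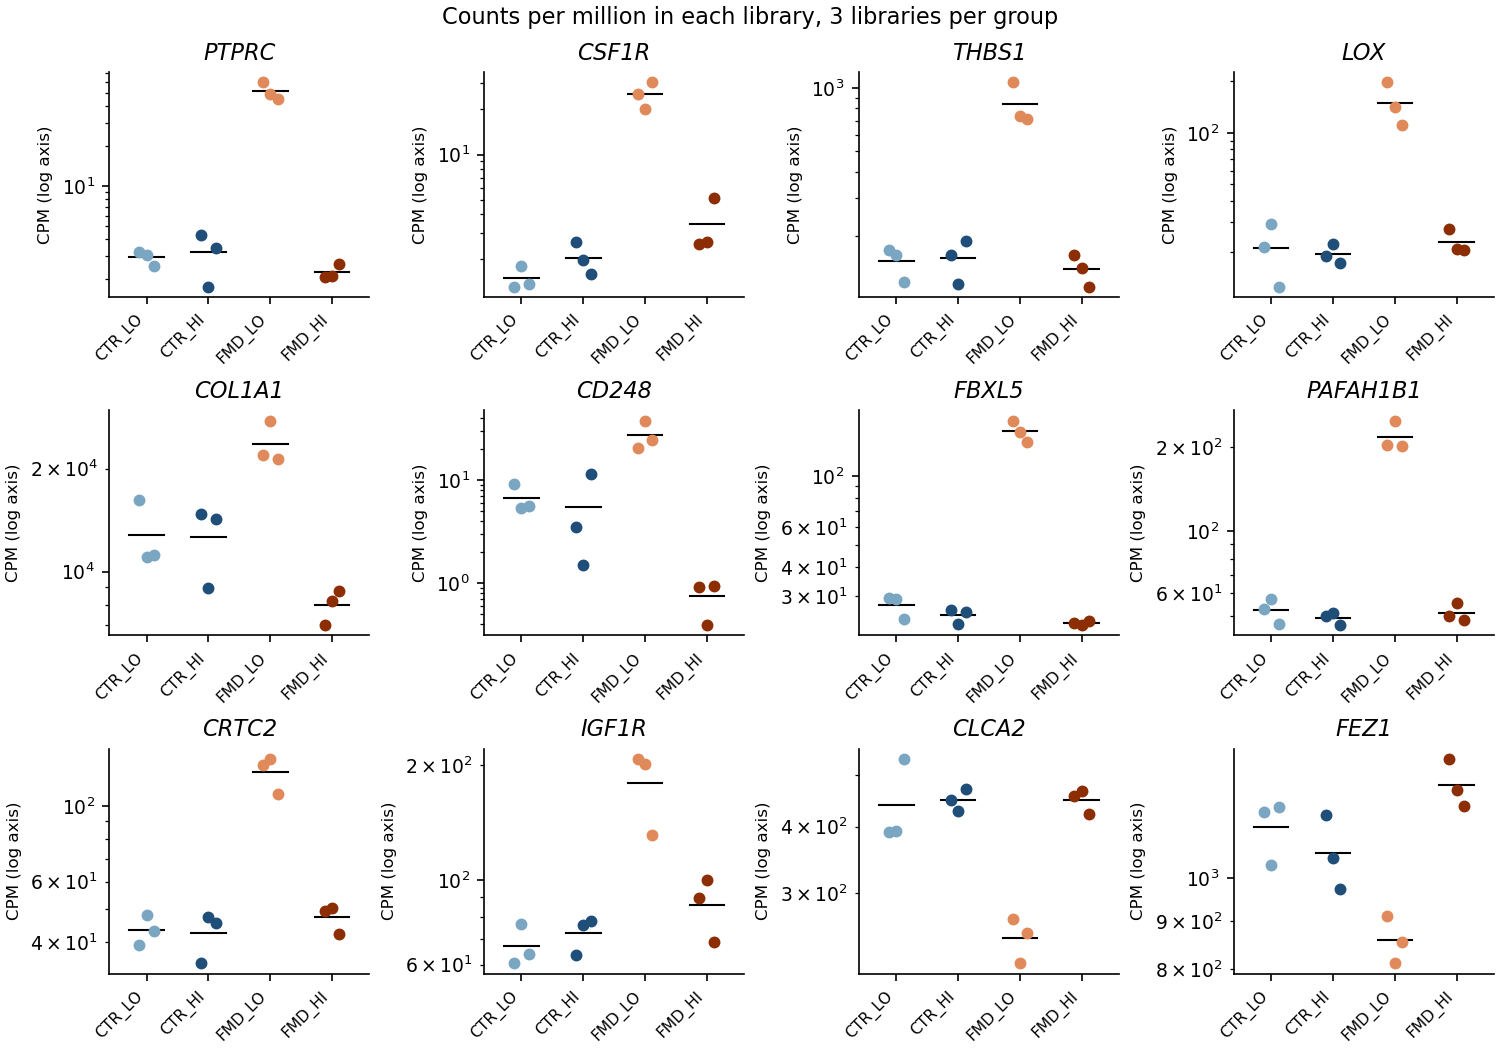
CPM of 12 genes in each library on log axes, with 1 point per library, a bar at the mean of the 3 libraries and the 4 groups on the x axis. In 10 panels FMD_LO is the highest group, for CD248 and COL1A1 all FMD_HI libraries lie below the other 9, and for CLCA2 and FEZ1 FMD_LO is the lowest.

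Genes of nutrient and hormone signalling were next. The insulin and IGF list had 3 negative calls among 15 members, beside 4.07% of all genes tested, with a median of -0.16. IGF1R, the receptor for insulin-like growth factor 1 (chr15:98648539-98964530), was at 60.4, 76.7 and 63.9 CPM in CTR LO and 208, 201 and 131 CPM in FMD LO. In CD24-high cells IGF1R was at 63.5, 76.2 and 77.9 CPM under the control diet and 89.7, 99.7 and 68.9 CPM under the fasting-mimicking diet, where the diets overlapped. Its interaction was -1.18 ± 0.26 (edgeR adjusted p = 0.0213), and the call was lost without CTR LO replicate 3, CTR HI replicate 3, FMD LO replicate 1 or FMD LO replicate 2 (0.0666). The ligand gene IGF1 gave -4.37 ± 0.73, at 5.04 to 7.24 CPM in FMD LO and 0.0899 to 1.21 CPM elsewhere, and IGFBP7, an IGF-binding protein relative, -1.84 ± 0.26.

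The protein kinase A and CREB list had 3 negative calls among 33 members (9.09%, beside 4.07% of all genes tested). It had 24 negative signs and a median of -0.18. CRTC2, a coactivator of CREB that responds to cAMP (chr1:153947675-153958612), was at 39.1, 48.0 and 42.99 CPM in CTR LO and 132, 137 and 109 CPM in FMD LO. It lay between 34.6 and 50.4 CPM in the CD24-high libraries of both diets. The CRTC2 interaction was -1.38 ± 0.20 (edgeR adjusted p = 0.00207). PDE4B, a phosphodiesterase that breaks down cAMP, gave -2.61 ± 0.35. The cAMP phosphodiesterase PDE3A gave -3.00 ± 0.74 and was called in 2 of the 12 fits that left out 1 library.

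The kinase and transcription factor genes tied to this study by its field were mostly not called, apart from IGF1R. The interaction was -0.06 ± 0.16 for PRKACA and -0.08 ± 0.29 for PRKACB, catalytic subunits of protein kinase A, and -0.50 ± 0.16 for CREB1 (edgeR adjusted p = 0.909, 0.939 and 0.111). CREB1 was called by DESeq2 (adjusted p = 0.0207) and in edgeR with a replicate block within diet (0.0232). PIK3CA gave -0.64 ± 0.18 (adjusted p = 0.0631), and it was called with RLE scaling (0.045), by DESeq2 (0.00806) and with that block (0.0192). The interaction was -0.12 ± 0.24 for CDK6, 0.15 ± 0.16 for CDK4 and 0.36 ± 0.24 for CCND1. KLF5, a stemness-linked transcription factor, gave 0.45 ± 0.47, and EHMT2, the histone methyltransferase G9A, -0.02 ± 0.15. ID1, an inhibitor of differentiation, had diet differences of 1.18 ± 0.20 in CD24-low cells and 1.43 ± 0.21 in CD24-high cells (edgeR adjusted p = 0.00163 and 0.142), with an interaction of 0.26 ± 0.29 (95% interval -0.36 to 0.87).

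The hypoxia list had 4 negative calls among 30 members (13.3%, beside 4.07% of all genes tested). Its called members besides LOX were the histone demethylase gene KDM3A (-1.10 ± 0.24), P4HA1, a collagen prolyl hydroxylase (-1.17 ± 0.28), and PLIN2, which coats lipid droplets. PLIN2 (-4.90 ± 1.03) lay between 59.6 and 102 CPM in FMD LO, 0.238 and 2.18 CPM in the controls, and 0.72 and 1.69 CPM in FMD HI, and was called in 5 of the 12 fits that left out 1 library. In the glycolysis list 1 of 23 was called (4.35%, near the 4.13% of all genes tested). It was PGK1 (-0.86 ± 0.22, edgeR adjusted p = 0.0432), which was called in 4 of the 12 such fits. The glucose transporter gene SLC2A1 was not called (-0.31 ± 0.31).

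The lysosome and autophagy list had 5 negative calls among 36 members (13.9%, beside 4.07% of all genes tested) but a median of -0.06. ATP6V1A and ATP6V1H, subunits of the proton pump that acidifies lysosomes, gave -1.18 ± 0.19 and -0.92 ± 0.17. MITF, a transcription factor of lysosomal genes, gave -2.07 ± 0.39, and GABARAP, an autophagosome protein, -1.16 ± 0.24. In the PI3K, AKT and mTOR list 1 of 34 members was called (2.94%, near the 4.13% of all genes tested), RRAGA, a GTPase that carries the amino acid signal to mTOR (-1.19 ± 0.24).

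Splicing factors had 4 negative calls among 34 members (11.8%, beside 4.07% of all genes tested), 31 negative signs and a median of -0.26. SF3B1, a core subunit of the U2 particle (chr2:197389784-197435093), was at 329, 323 and 259 CPM in CTR LO and 759, 797 and 772 CPM in FMD LO. It stayed between 272 and 331 CPM in the CD24-high libraries, and its interaction was -1.25 ± 0.17 (edgeR adjusted p = 0.000977). The RNA helicase gene DDX5 (-1.13 ± 0.18) and the splicing regulator gene TRA2A (-1.17 ± 0.19) had the same pattern, with FMD LO above all other libraries. The summed level of nuclear-retained RNA, a measure that moves with RNA quality, was 2081 to 2403 CPM in FMD LO, 1265 to 1662 in CTR LO, 1096 to 1733 in CTR HI and 1530 to 2079 in FMD HI, and its part in these calls was not tested.

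Large negative values came from genes that were scarce outside FMD LO. Among them were the guanine deaminase gene GDA (-5.72 ± 1.22), the hexokinase gene HK3 (-5.46 ± 1.13), PLEK, a platelet and leukocyte kinase substrate (-5.36 ± 1.23), and EFHD1 (-5.11 ± 0.60), a calcium-binding mitochondrial protein. USP6, MTRNR2L10 and HNRNPCL1 gave -6.05, -5.99 and -5.81, and they have near-identical copies in the genome, so their levels are uncertain. USP6 and HNRNPCL1 also passed the filter on low counts only through FMD LO. EFHD1 was called in every one of 19 alternative fits, USP6 in 17, GDA in 12 and PLEK in 7.

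For all 8 genes with a positive interaction, FMD LO lay below the other 9 libraries, beside 773 of all genes tested (5.00%). Their median diet difference was -0.89 in CD24-low and -0.03 in CD24-high cells. CLCA2, a p53-inducible regulator of chloride conductance (chr1:86424171-86456553), was at 391, 393 and 537 CPM in CTR LO and 268, 221 and 252 CPM in FMD LO. In CD24-high cells CLCA2 was at 448, 429 and 471 CPM under the control diet and 457, 468 and 422 CPM under the fasting-mimicking diet. Its interaction was 0.83 ± 0.19 (edgeR adjusted p = 0.0255).

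The other positive genes within the naming rule were SLC35F3 (1.01 ± 0.26), CARD16 (0.81 ± 0.20), SLITRK6 (0.77 ± 0.19), FEZ1 (0.64 ± 0.16), NET1 (0.61 ± 0.15) and PVT1 (0.58 ± 0.15). FEZ1, which links cargo to kinesin motors, was at 1173, 1031 and 1189 CPM in CTR LO and 911, 812 and 855 CPM in FMD LO, and at 1167, 1050 and 973 CPM in CTR HI and 1337, 1240 and 1191 CPM in FMD HI. These calls were fragile: none of the 8 was called without CTR LO replicate 3, CTR HI replicate 3, FMD LO replicate 2 or FMD HI replicate 1.

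Several programmes had no called member in the main fit, which has no replicate block. None of the 55 cytosolic ribosomal protein genes was called in it or by DESeq2, but 17 were with a replicate block within diet. In the main fit 14 were at an unadjusted p below 0.05, all 55 had a positive sign (54 with RLE scaling) and their median was 0.35. In the main fit none was called among 38 genes of G2 and M phase (median 0.14), 35 of G1 and S phase (0.21), 24 of cholesterol synthesis (0.23), 40 of oxidative phosphorylation (0.23), 28 of the interferon response (0.32) and 28 of the NF-kB, cytokine and chemokine list (0.52). At an unadjusted p below 0.05 these 6 lists held 0, 1, 2, 2, 2 and 3 genes, and DESeq2 called 1, of the interferon response. The replicate block within diet called 0, 0, 2, 1, 2 and 7 of their genes. The median over all genes tested was 0.04. The 95% interval of the interaction lay within 1 log2 unit of 0 for 9123 genes (59.0%) and within 0.5 for 1665 (10.8%), with a median half-width of 0.57.

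**Figure D5:**
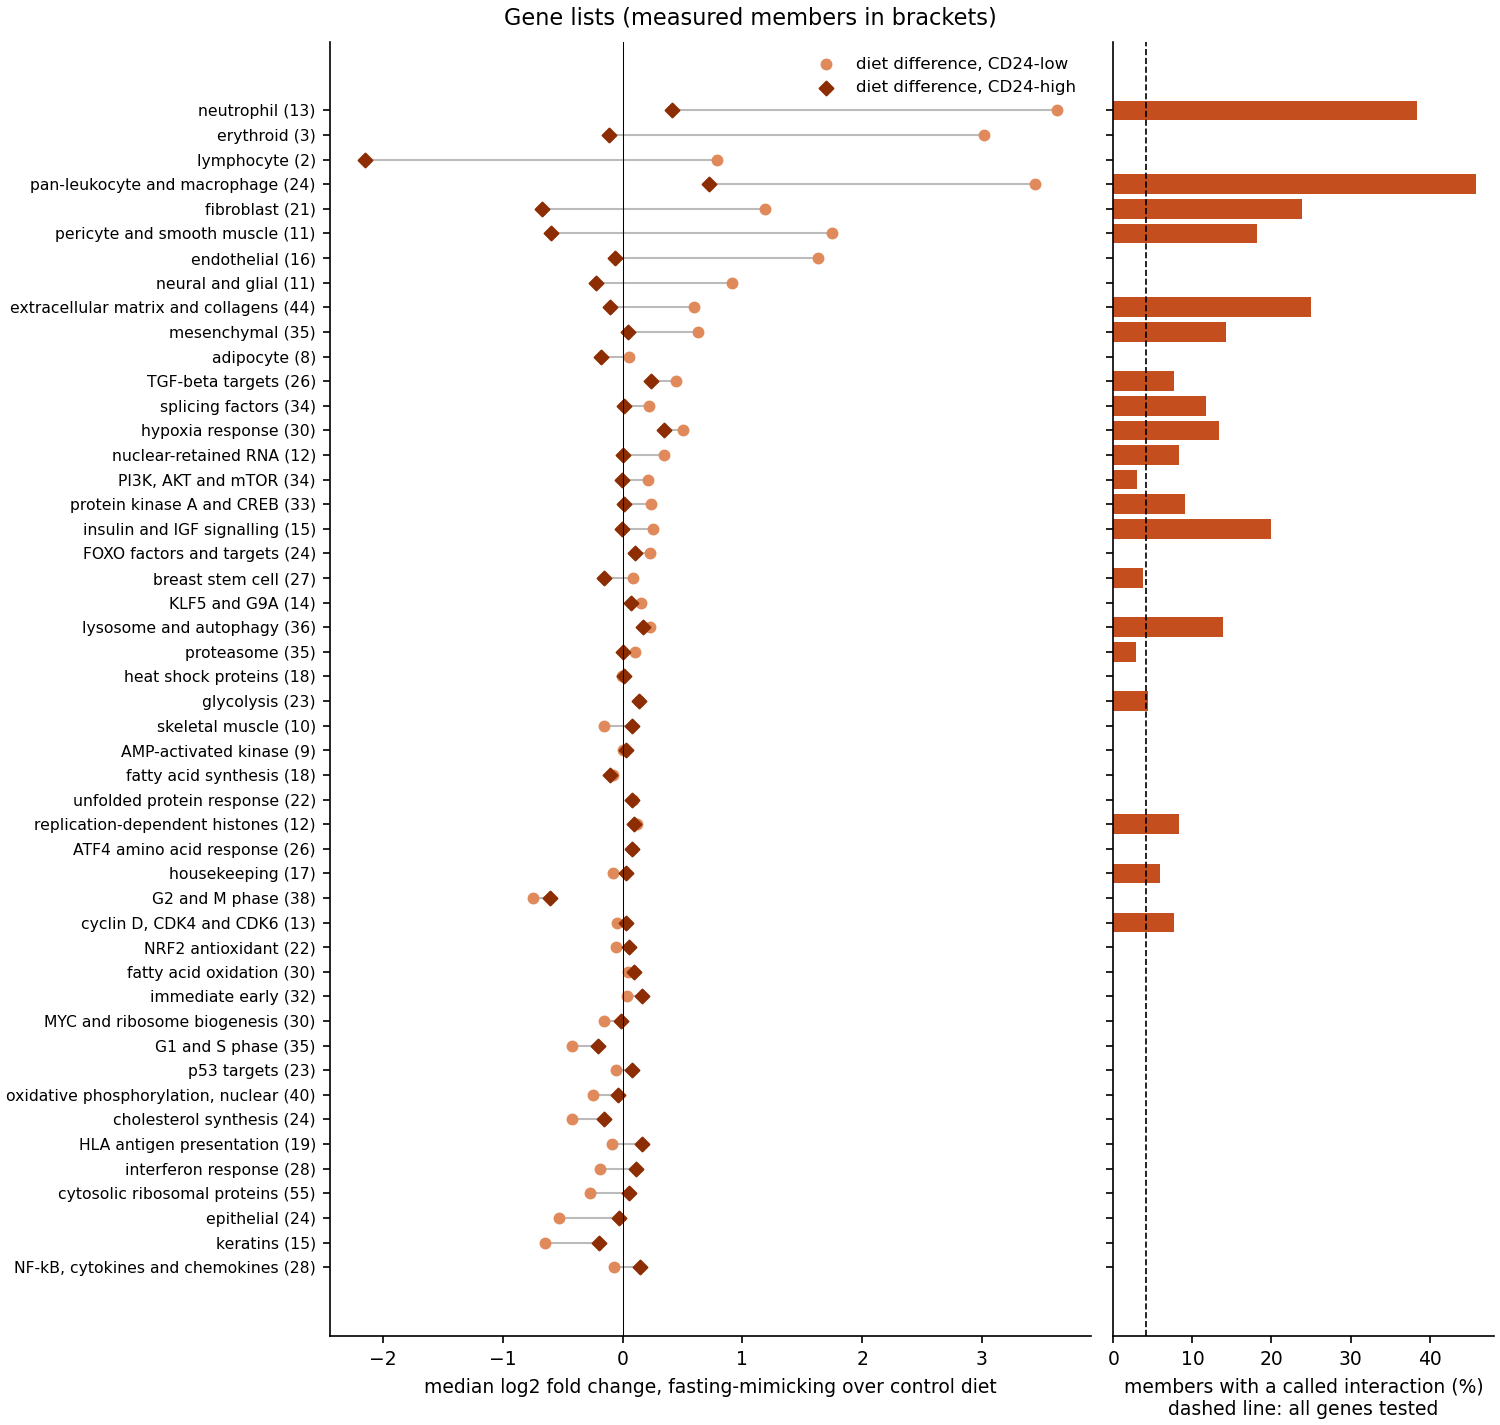
Median diet difference of each gene list (left, log2 scale) in CD24-low cells (circles) and CD24-high cells (diamonds), and the percent of measured members with a called interaction (right), with all genes tested, 4.13%, as the dashed line. The leukocyte, neutrophil, fibroblast and matrix lists lie furthest above the line, and lists without a bar had no called member.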

How the data were processed

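The values the authors deposited were raw gene counts for each library. The submitters' processing notes name STAR and hg38; a version of STAR, the annotation and any separation of mouse reads are not given in the sources used here. Counts of the reverse strand (column 4), which fits the stranded kit named in the labels, were used. A single model of the 4 groups was fitted in edgeR 4.0.16 with R 4.3.3 (TMM, default filter by group, robust quasi-likelihood, 8 residual degrees of freedom). A call required an adjusted p (Benjamini-Hochberg, across every tested gene) below 0.05, and adjusted p-values are from this fit unless another tool is named. CPM used TMM-scaled library sizes, are not divided by gene length, and are not compared between genes. Values after ± are standard errors. The method was checked on simulated counts.

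Named genes were CD24 and CD44, the 12 largest interactions in each direction, up to 3 called members of each list, the 6 largest opposite differences and 6 genes with few counts, with at least 2 CPM in the highest group and 10 counts in each group except for the few-count and opposite sets, and genes tied to the study by its field; part of these is printed, and 1 is not reported here. The gene lists, 48 in number, and the members were chosen with earlier results of these data known. Lists are given as counts and medians, without a set test. Positions and promoters are from RefSeq (GRCh38.p14; 14169 genes matched by symbol), transcript features from GENCODE release 29. Alternatives were both strands, RLE scaling, no count filter, replicate blocks, thinning to the smallest total, DESeq2 1.42.0 and leaving out each library.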

Additional observations from a re-analysis of the deposited data

Results flagged for a closer look

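The diet difference differed between the sorted populations, by the interaction test itself, for 638 genes, 630 with a negative and 8 with a positive value. Among the called genes whose diets lay apart in opposite directions in both populations, the 6 largest interactions on the log2 scale were -5.892 for SVILP1, -5.353 for KIF4B, -4.957 for LDB2, -4.91 for CD248, -4.67 for PLCB4 and -4.581 for ACTG2. Each was higher under the fasting-mimicking diet in CD24-low cells and lower in CD24-high cells. The difference in CD24-high cells alone was not called for any of them (edgeR adjusted p from 0.435 for CD248 to 0.915 for SVILP1 and PLCB4). SVILP1, KIF4B and PLCB4 passed the filter on low counts only through FMD LO, the group where they were high.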

How the results depend on the processing

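The counts of 638 called genes, 630 negative and 8 positive, held within 1.5 times with reads of either strand (673), RLE scaling (720) and thinning of every library to the smallest total (546), and in total and for negative calls without a count filter (568), which gave 5 positive calls. DESeq2 called 1156 genes, 1122 negative and 34 positive. Leaving out each library in turn gave 361 to 767 genes, 361 to 752 of them negative and 0 to 16 positive; the lowest counts came without FMD LO replicate 2. The same-numbered LO and HI libraries of a diet correlated over 0.1 in 5 of 6 pairs, in their deviations from the group means. In 5 pairs both libraries correlated best with their own number, and replicate 3 of the control diet was at 0.037. Most numbers thus went together, but not all, and the labels give no pairing. The main fit therefore has no replicate block, and the blocks are given as alternatives. A replicate block by number gave 669 genes with 16 positive, and a replicate block within diet gave 1702, with 1387 negative and 315 positive, of which 81.5% were negative. That block ended the calls of CD248 (adjusted p = 0.0587), ACTA2 (0.0768), LDB2 (0.0851) and PDE3A (0.126), and made calls of PIK3CA (0.0192), CREB1 (0.0232), 17 of 55 ribosomal protein genes, 7 NF-kB, 4 epithelial, 2 keratin, 2 cholesterol, 2 interferon and 1 oxidative phosphorylation gene, from lists with no call in edgeR without the block. Every main call with a value kept its sign in all of these. Of the 65 named called genes, 32 were called in every alternative. For genes with interactions near 0 the sign changed: EHMT2 was at 0.0104 without a count filter, and on leaving out each library EHMT2 ranged from -0.0706 to 0.0456, PRKACB from -0.29 to 0.0998, CDK6 from -0.29 to 0.0171 and PRKACA from -0.13 to 0.0265. The cause of these changes was not tested. The lower depth of FMD LO limits what can be detected for scarce genes there.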

Other observations

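Genes with a negative interaction had longer transcripts than all genes tested, with a median of 4137 bases against 3444 (591 of 630 and 13336 of 15461 genes had a value in GENCODE), and a GC content of 47.4% against 48.8%. Over 4 classes of 3′ UTR length, from the shortest to the longest, the share with a negative call was 3.68, 4.48, 4.23 and 5.34% over all genes with a value. Within 3 classes of expression it was 5.09, 5.36, 5.15 and 7.29% in the lowest, 3.24, 3.55, 2.70 and 3.15% in the middle, where it did not increase, and 2.44, 4.49, 4.91 and 6.13% in the highest. The part of these features in the calls was not tested.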
